A study of Mus musculus with 33 samples.

Results

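Whole lung was set against whole liver of fetal mice at day 21 of gestation (F21), the last day before birth, to describe what told the organs apart at term. Of the 33 Affymetrix MGU74Av2 arrays of the study, 6 were chosen by their labels: 3 of fetal lung whose dams breathed room air (21% oxygen) and 3 of fetal liver. The label of 2 lungs gave the strain as C57/Black, that of the remaining lung gave none, and the 3 livers were labelled C57/BL. The methods name C57B/6J dams, with no transgene and no treatment in either group. Each array held RNA of 1 labelled sample, and whether a lung and a liver came from the same fetus was not given in the sources used here, so that p-values measure the spread between these arrays. The remaining arrays were of newborn lung and liver and of lung under 10% oxygen, and 12 of them, the newborn lungs and livers of 2 h and 6 h in room air, served as a second look at the same organs.

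The lung at term is lined by 2 kinds of alveolar epithelium. Type 2 cells make surfactant, the lipid and protein film that lowers surface tension once air enters, and flat type 1 cells form the surface for gas exchange. Around them lie an elastic connective tissue, smooth muscle and a dense capillary bed. The fetal liver secretes most plasma proteins, prepares enzymes for nitrogen and glucose metabolism, and until shortly after birth is a main site of blood formation, so that it holds red cell and granulocyte precursors and macrophages beside its hepatocytes.

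Signals were the authors' MAS5 intensities in arbitrary units, scaled to a target of 100 on every array, set to 10 where lower and compared as log2, lung minus liver, with limma. A probe set was tested when at least 3 of the 6 arrays had it in their brightest 40%, and was called at an adjusted p under 0.05. Of 5444 probe sets tested, 2096 were called (38.5%), 1145 higher in lung and 951 higher in liver. With 1 probe set per gene, 923 of 4334 genes were higher in lung (21.3%) and 763 were higher in liver (17.6%), while 2648 were not called. The shares of 21.3% and 17.6% are the background for the list counts below. The lists were chosen with earlier results of these data known, so that a count above these shares is a description only. The median difference over all genes tested was log2 0.16.

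The arrays of an organ were alike and those of different organs were not. Across probe sets, Pearson's r was 0.904 to 0.910 between fetal lungs, 0.872 to 0.880 between fetal livers, and 0.715 to 0.729 between a lung and a liver. The 100 brightest probe sets held 31.2% to 33.9% of the signal in lung and 40.3% to 41.1% in liver. The ratio of the 3′ to the 5′ probe set of Gapdh, a sign of how complete the labelled RNA was, was 0.824 to 1.03 in lung and 1.34 to 1.86 in liver. The 2 ranges did not overlap, so that RNA quality and organ cannot be told apart here.

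The largest differences lay on the liver side. Among genes higher in lung, the median size was log2 1.29, 238 genes differed by at least log2 2, 86 by at least 3 and 14 by at least 5. Among genes higher in liver, the median size was log2 1.66, and the same counts were 307, 163 and 64. Many of these genes were near background in one organ: 201 genes higher in lung (21.8%) lay outside the top 40% of signals on all 3 liver arrays, and 265 genes higher in liver (34.7%) lay outside it on all 3 lung arrays. By the filter, such genes were tested only because all 3 arrays of the other organ lay in the top 40%. The size of such a difference depends on the background of the dim organ. The filter limits the list counts below as well. Of the genes tested, 5 of 10 in the surfactant list and 16 of 46 in the matrix list passed it only through lung. In the matrix list 2 passed it only through liver, and in the urea cycle and amino acid list 20 of 39 did. In whole organs, fewer cells of a type and less RNA per cell cannot be told apart.

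**Figure D1:**
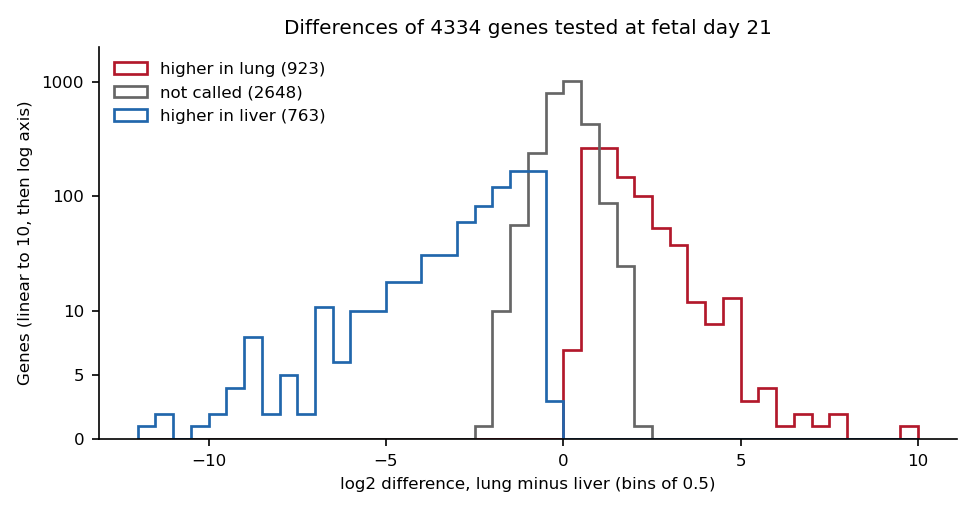
Number of genes by log2 difference, lung minus liver, in bins of 0.5 for 4334 genes tested at F21, with a vertical axis that is linear to 10 and logarithmic above. The outline of the 763 genes higher in liver reaches to log2 -11.68, farther from 0 than that of the 923 genes higher in lung, which ends at 9.71.

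The markers of both labels lay in the labelled organ. Of 8 lung markers, Sftpa1 and Nkx2-1 had no probe set named for them here and Sftpd was too dim to be tested, at 26.6, 34.5 and 49.7 in lung and 16.3, 47.8 and 27.2 in liver. The remaining 5 (Sftpb, Sftpc, Scgb1a1, Ager and Pdpn) were all called higher in lung. All 8 liver markers (Alb, Afp, Ttr, Apoa1, Apoh, Fgb, Hnf4a and Serpinc1) were called higher in liver.

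Surfactant genes led the lung side. Sftpc, which encodes surfactant protein C, had signals of 54367, 44418 and 43575 in lung, against 35.6, 58.6 and 85.2 in liver. The lowest lung was more than 100 times the highest liver, and the difference was log2 9.71 (standard error 0.28, adjusted p = 1.38e-08). Sftpb, which encodes the surfactant protein B needed to spread the film, had 4959, 5330 and 3441 in lung and 29.6, 65.7 and 18.5 in liver (log2 7.09, standard error 0.40, adjusted p = 1.59e-06). Slc34a2, the phosphate transporter of type 2 cells, had 2546, 3038 and 1787 in lung and 6.4, 14.6 and 4.5 in liver. Its log2 difference of 7.72 (adjusted p = 5.22e-08) rests on livers of which 2 lay under the floor. Napsa, a protease that processes pro-surfactant protein B, had 2045, 1978 and 2233 in lung and 16.9, 8.2 and 34.2 in liver (log2 6.86, adjusted p = 1.51e-06).

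Of 10 genes tested in the surfactant and type 2 cell list, 9 were higher in lung and 1 was not called, with a median of log2 4.27 beside 0.16 over all genes. The other members differed by less. Muc1, a membrane mucin, differed by log2 4.70 (adjusted p = 7.27e-05) and Chil1, a chitinase-like protein, by 3.85 (adjusted p = 8.12e-05). Cd74, the invariant chain of class II antigen presentation, which type 2 cells share with macrophages and B cells, had 129, 141 and 141 in lung and 186, 120 and 112 in liver, and was not called (log2 0.01, adjusted p = 0.979).

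The promoter of Sftpb is shown from 250 bases before to 50 after the RefSeq start, in the build GRCm38.p6, at chr6:72304360-72304659 on the plus strand. It stands for the lung side because, of the 12 largest differences toward lung named by rule, it was the largest with a promoter in the table. The letters CAAGTG, the core of a site for the lung factor NKX2-1, were looked for on both strands and were not in this window, nor were TATAAA and GTTAAT, so that no letters are in capitals.
Sftpb: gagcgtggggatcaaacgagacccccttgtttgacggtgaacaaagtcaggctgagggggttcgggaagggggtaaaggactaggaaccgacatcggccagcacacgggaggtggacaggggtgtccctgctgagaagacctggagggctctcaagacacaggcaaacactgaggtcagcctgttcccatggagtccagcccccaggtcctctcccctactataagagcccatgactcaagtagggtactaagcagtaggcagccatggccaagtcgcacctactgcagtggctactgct
CAAGTG was in the promoters of 2 of 8 matched genes of those 12 (Wfdc2, whose 2 windows lie 1 base apart and share the site, and Ahnak), in 12.1% of promoters of genes higher in lung and in 13.6% of all 32851 promoters of this length. Among genes higher in liver it was in 13.6%, and among all genes tested in 12.3%.

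Type 1 cell genes were likewise higher in lung. Ager, the receptor that marks type 1 cells, had 5357, 5156 and 4086 in lung and 128, 44.2 and 40.4 in liver (log2 6.30, standard error 0.39, adjusted p = 2.62e-06). Emp2, a tetraspan membrane protein, had 1872, 2006 and 1321 in lung and 16.3, 15.2 and 21.5 in liver (log2 6.61, adjusted p = 8.43e-08). Pdpn, podoplanin of the type 1 cell surface, was much dimmer, with 154, 123 and 131 in lung and 23.7, 20.0 and 10.1 in liver (log2 3.01, adjusted p = 0.00088). Of 11 genes in the list, 10 were higher in lung, and 6 of the 11 passed the filter only through lung. The exception was Igfbp2, a binding protein for insulin-like growth factors that hepatocytes also make, with 142, 110 and 170 in lung and 5086, 4789 and 5621 in liver (log2 -5.22, adjusted p = 4.61e-08).

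The airway epithelium gave a smaller median, log2 1.38 over 12 genes, of which 8 were higher in lung, 1 higher in liver and 3 not called. Scgb1a1, the secretory protein of club cells, had 2731 and 2744 in the first and second lung but 798 in the third, against 7.4, 9.5 and 9.6 in liver. All 3 livers lay under the floor, so that the lung was at least 182-fold higher (adjusted p = 2.11e-06). Cyp2f2, a cytochrome P450 of club cells, had 434, 355 and 757 in lung and 110, 125 and 156 in liver (log2 1.92, adjusted p = 0.000823). Foxj1, the factor that drives ciliated cells, had 127, 136 and 69.6 in lung and 88.0, 126 and 31.1 in liver, with overlap, and was not called (adjusted p = 0.392). Ltf, the iron-binding protein lactoferrin of secretions and of neutrophil granules, had 61.4, 86.4 and 44.4 in lung and 861, 911 and 843 in liver (log2 -3.82, adjusted p = 3.71e-06).

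**Figure D2:**
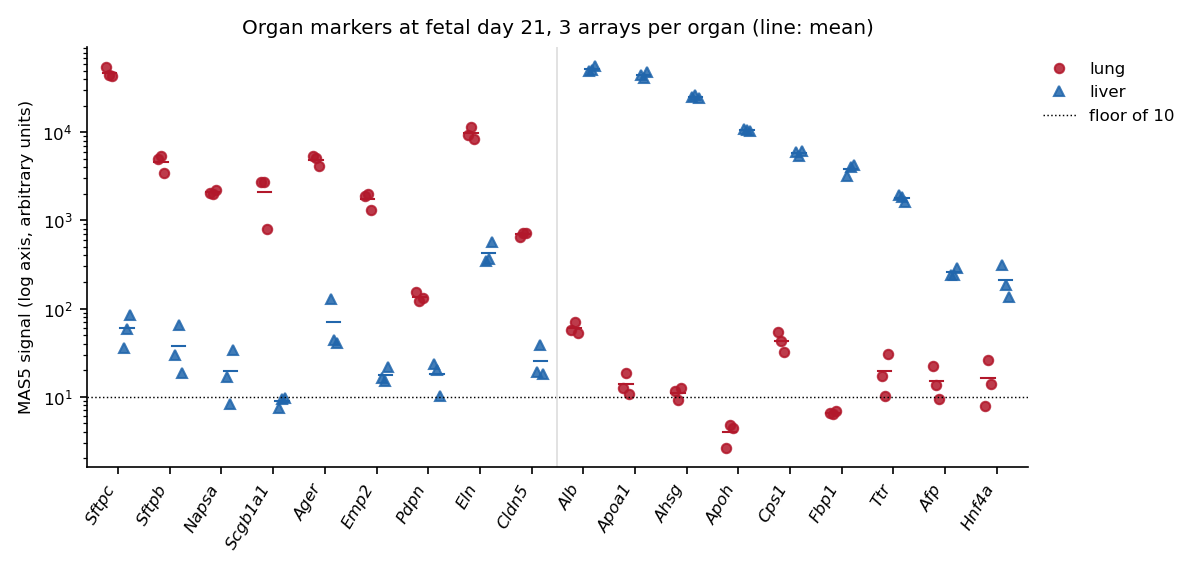
MAS5 signal on a log axis of 18 organ genes, with 3 lung arrays (circles, left) and 3 liver arrays (triangles, right) per gene, a line at each mean and a dotted line at the floor of 10. For each gene the 3 arrays of the organ it marks lie above the 3 of the other organ, and Scgb1a1 has 1 lung, at 798, below the other 2.

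Connective tissue genes were higher in lung as a group. Of 46 matrix genes tested, 38 were higher in lung, 4 higher in liver and 4 not called, with a median of log2 2.29. Eln, elastin, had 9258, 11432 and 8319 in lung and 349, 360 and 571 in liver (log2 4.53, standard error 0.21, adjusted p = 4.32e-07). Mfap4, a protein of elastic fibres, differed by log2 5.97 (adjusted p = 1.98e-05), Mgp, an inhibitor of calcification, by 5.44 (adjusted p = 3.05e-05) and Npnt, a basement membrane ligand of integrins, by 5.10 (adjusted p = 4.49e-06). Lama5, a laminin chain of epithelial basement membranes, had 524, 655 and 782 in lung and 19.4, 15.9 and 31.9 in liver. Col1a1, the main chain of type I collagen, was bright in both organs, with 1454, 1473 and 1983 in lung and 321, 298 and 362 in liver (log2 2.31, adjusted p = 7.51e-06). Itgb1, the shared beta chain of many matrix receptors, varied among lungs (1960, 1019 and 2815) and lay at 271, 292 and 304 in liver (log2 2.62, adjusted p = 0.000203).

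Fn1, fibronectin, did not follow the list. It had 1070, 1070 and 935 in lung and 1128, 1388 and 1120 in liver (log2 -0.24, adjusted p = 0.222). Fibronectin is also a plasma protein made by hepatocytes. Of the 4 matrix genes higher in liver, Vtn encodes vitronectin, likewise a plasma protein, and had 8.3, 6.8 and 18.1 in lung and 4705, 4632 and 4300 in liver (log2 -8.54, adjusted p = 1.75e-08). Tnxb, a tenascin, differed by log2 -2.79 (adjusted p = 0.00157), Dcn, the proteoglycan decorin, by -1.53 (adjusted p = 0.0131, but not called without the first liver) and Col18a1, a basement membrane collagen, by -1.37. These last 3 were named after their values were seen.

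Smooth muscle genes were higher in lung for 11 of 12 genes tested, at a median of log2 1.77. Acta2, smooth muscle actin, had 288, 263 and 568 in lung and 30.8, 25.5 and 64.1 in liver (log2 3.25, standard error 0.42, adjusted p = 0.000349). Mylk, the kinase that starts contraction, had 732, 856 and 1037 in lung and 206, 149 and 188 in liver (log2 2.27, adjusted p = 2.26e-05). Pdgfra, the receptor of lipofibroblast and myofibroblast precursors, differed by log2 3.59 (adjusted p = 8.15e-05) at its brightest probe set but by -0.24 (adjusted p = 0.641) at its other one, so that its difference is uncertain.

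Endothelial genes were mostly higher in lung. Of 31 endothelial genes, 19 were higher in lung, 11 were not called and 1, the leukocyte adhesion molecule Vcam1, was higher in liver (log2 -0.85, adjusted p = 0.0198), and the median was log2 1.72. Vcam1, named after its values were seen, was not called at its other probe set (adjusted p = 0.992) and lost its call without the first or the third liver or the first or the second lung, at log2 -0.83 to -0.7. Cldn5, a tight junction protein of endothelium, had 649, 716 and 722 in lung and 19, 38.8 and 18.3 in liver (log2 4.87, adjusted p = 3.86e-06). Cav1, caveolin of capillary endothelium and type 1 cells, had 862, 803 and 763 in lung and 51.7, 47.9 and 35.3 in liver (log2 4.19, adjusted p = 8.16e-07). Ace, the angiotensin converting enzyme of the lung circulation, had 133, 212 and 93.4 in lung and 11, 5.3 and 24.3 in liver (log2 3.32, adjusted p = 0.00122). Vwf, von Willebrand factor, had 184, 212 and 178 in lung and 160, 174 and 229 in liver and was not called (log2 0.04, adjusted p = 0.906).

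Of 29 transcription factors of lung tested, 20 were higher in lung and 9 were not called, at a median of log2 1.55. Tcf21, a factor of lung mesenchyme, had 1364, 1373 and 1528 in lung and 98.2, 92.6 and 97.1 in liver (log2 3.89, adjusted p = 9.82e-08). Hopx, a homeodomain protein of type 1 cells, had 2255, 2299 and 2277 in lung and 121, 121 and 124 in liver (log2 4.22, adjusted p = 2.39e-08). Tbx2, a T-box factor of lung mesenchyme, differed by log2 4.56 (adjusted p = 0.000419) and Sox17, an endothelial and endodermal factor, by 3.10 (adjusted p = 5.68e-05). Foxa2, which lung and liver both use, had 133, 162 and 232 in lung and 101, 167 and 161 in liver and was not called (log2 0.29, adjusted p = 0.462).

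Klf4, the Krüppel-like factor that the study followed at birth, and its relative Klf5 were both higher in lung at F21. Klf5 had 299, 268 and 364 in lung and 57.2, 9.0 and 74.8 in liver (log2 3.14, standard error 0.66, adjusted p = 0.00512). Klf4 had low signals in both, at 77.0, 97.0 and 90.2 in lung and 21.0, 36.9 and 29.0 in liver (log2 1.64, standard error 0.40, adjusted p = 0.0113), and lost its call without the second lung, at log2 1.56. In the newborn organs its difference was log2 5.01 at 2 h and 3.65 at 6 h, but the change of the difference was not tested. Cdkn1a, a cell cycle inhibitor, was not called at F21 (log2 -0.34, adjusted p = 0.356), and Tnc was too dim to be tested.

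Signals between cells of the growing lung were higher in lung for 18 of 32 morphogen and growth factor genes, at a median of log2 0.94, with 2 higher in liver and 12 not called. Shh, the hedgehog ligand of airway epithelium, had 296, 275 and 295 in lung and 64.1, 18.6 and 17.2 in liver (log2 3.4, adjusted p = 0.000615). Vegfa, the growth factor of capillaries, had 280, 310 and 301 in lung and 27.2, 89.1 and 50.5 in liver (log2 2.58, adjusted p = 0.000967). Fgfr2, the receptor of mesenchymal FGF signals, had 947, 624 and 1050 in lung and 184, 151 and 163 in liver (log2 2.37, adjusted p = 3.33e-05). The 2 genes higher in liver were Tgfb1, with 23.5, 16 and 10.1 in lung and 141, 164 and 119 in liver (log2 -3.17, adjusted p = 0.000634), and the EGF receptor Egfr (log2 -2.14, adjusted p = 0.01). Vegfa, Fgfr2 and Egfr were named after their values were seen.

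The fetal lung secretes liquid by moving chloride, and takes it up after birth by moving sodium. Of 16 genes of ion and liquid transport, 8 were higher in lung, 3 higher in liver and 5 not called, at a median of log2 0.81. The 3 higher in liver made up 18.8%, near the 17.6% of all genes tested. Slc12a2, which loads epithelia with chloride, had 243, 214 and 362 in lung and 38.1, 51.5 and 43.4 in liver (log2 2.60, adjusted p = 0.000133). Cftr, the chloride channel mutated in cystic fibrosis, had low signals, with 103, 130 and 134 in lung and 25.1, 8.0 and 49.9 in liver (log2 2.39, adjusted p = 0.00988). Car2, a carbonic anhydrase that red cells also hold, was higher in liver, with 639, 767 and 992 in lung and 3432, 3647 and 3202 in liver (log2 -2.12, adjusted p = 1.65e-05).

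Plasma protein genes made up the far end of the liver side. Alb, albumin, had 57.2, 70.3 and 52.4 in lung and 49027, 50568 and 56105 in liver (log2 -9.77, standard error 0.15, adjusted p = 3.86e-10). Ahsg, the carrier protein fetuin A of fetal plasma, had 11.5, 9.2 and 12.5 in lung and 24769, 26267 and 24491 in liver (log2 -11.12, adjusted p = 3.23e-10). The largest difference of the genes tested was that of Apoa1, the main protein of HDL, with 12.4, 18.5 and 10.8 in lung and 44977, 40996 and 47849 in liver (log2 -11.68, standard error 0.20, adjusted p = 9.36e-10). Apoh, a phospholipid-binding plasma protein, had 2.6, 4.8 and 4.4 in lung and 10770, 10624 and 10206 in liver. All 3 lungs were under the floor, so that the liver was at least 1050-fold higher (adjusted p = 3.86e-10).

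Of 58 plasma protein genes tested, 52 were higher in liver, 1 higher in lung and 5 not called, with a median of log2 -5.70. In 42 of the 58, the lung signal lay outside the top 40% on all 3 arrays. By the filter, these were tested only because all 3 livers lay in it. The summed signal of the 67 listed genes on the array was 4860 to 5205 in lung and 322552 to 330539 in liver. Serpina1e and Serpina1b, of the alpha-1 antitrypsin family, differed by log2 -11.23 and -9.49, but copies of this family are near-identical and their probes may share RNA. Afp, the fetal albumin, was at only 242, 241 and 286 in liver, against 22.5, 13.4 and 9.3 in lung (log2 -4.15, adjusted p = 5.05e-05). The gene higher in lung was Saa2, an acute phase protein, with 198, 168 and 104 in lung and 57.3, 50.1 and 75.5 in liver (log2 1.33, adjusted p = 0.0117), named after its values were seen and not called without the first lung. F7 and Serpinf2, not called at their brightest probe sets, were higher in liver at another (log2 -2.00 and -7.74).

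HNF1 factors act on many hepatocyte promoters, through an inverted repeat with GTTAAT as one arm. The letters were in the promoters of Alb (chr5:90460620-90460919, plus strand), Serpina1e (chr12:103956848-103957147, minus strand) and Igfbp1 (chr11:7197537-7197836, plus strand), which are shown because they hold these letters, in the same build and window as Sftpb, with GTTAAT or its reverse complement in capitals.
Alb: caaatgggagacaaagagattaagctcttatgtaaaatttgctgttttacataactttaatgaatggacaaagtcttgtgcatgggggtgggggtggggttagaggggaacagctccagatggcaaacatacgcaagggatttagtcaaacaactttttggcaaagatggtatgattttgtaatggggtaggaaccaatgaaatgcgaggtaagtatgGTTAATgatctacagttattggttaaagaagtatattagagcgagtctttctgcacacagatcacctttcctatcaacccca
Serpina1e: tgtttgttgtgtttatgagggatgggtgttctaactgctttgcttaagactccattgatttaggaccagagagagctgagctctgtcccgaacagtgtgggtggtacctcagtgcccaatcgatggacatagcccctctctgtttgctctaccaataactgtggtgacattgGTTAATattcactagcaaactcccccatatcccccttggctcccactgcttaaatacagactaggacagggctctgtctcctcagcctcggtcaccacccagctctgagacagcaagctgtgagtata
Igfbp1: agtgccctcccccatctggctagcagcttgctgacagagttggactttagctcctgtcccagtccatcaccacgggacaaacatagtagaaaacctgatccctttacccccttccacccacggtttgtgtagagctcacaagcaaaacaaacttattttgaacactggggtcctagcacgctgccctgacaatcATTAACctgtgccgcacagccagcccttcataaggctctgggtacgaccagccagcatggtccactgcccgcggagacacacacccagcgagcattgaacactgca
The capitals begin at position -32 in Alb, -78 in Serpina1e and -56, on the opposite strand, in Igfbp1, counted from the RefSeq start. Of the 12 largest differences toward liver, 10 genes were matched and 4 held the letters, while Apoa1, the largest, and Ahsg, Ambp, Itih2, Rbp4 and Serpinc1 did not. Serpina1e and Serpina1b, among the 4, share the bases around the letters, so that this count and the next include near-identical copies. The letters were in 16 of 45 promoters of plasma protein genes higher in liver (35.6%, 42 genes matched), in 8.02% of promoters of genes higher in liver, in 4.27% of those higher in lung, and in 7.10% of all promoters in the table. Among promoters of all genes tested the share was 4.85%, and among those of genes not called it was 4.17%. TATAAA was in 22.2% of the promoters of those plasma protein genes, in 8.56% of those of genes tested and in 13.6% of all. These shares describe letters and were not tested.

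Lipid transport genes went the same way, with 18 of 20 higher in liver and a median of log2 -3.55. Fabp1, the fatty acid binding protein of liver, had 5.8, 6.7 and 2.7 in lung, all under the floor, and 2858, 3310 and 2768 in liver, at least 297-fold more (adjusted p = 4.66e-09). Apoe, which macrophages also secrete, was bright in both organs, with 2230, 2356 and 1593 in lung and 28517, 27439 and 26332 in liver (log2 -3.76, adjusted p = 4.32e-07). Pltp, a phospholipid transfer protein that type 2 cells and macrophages make, was the member higher in lung, with 665, 751 and 309 in lung and 135, 153 and 186 in liver (log2 1.78, adjusted p = 0.00241).

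Enzymes of the urea cycle and amino acid breakdown were mostly higher in liver, 31 of 39, 1 higher in lung and a median of log2 -2.46. Cps1, which makes the first product of the urea cycle, had 53.8, 42.5 and 32.5 in lung and 5884, 5359 and 6091 in liver (log2 -7.10, standard error 0.20, adjusted p = 1.20e-08). Arg1, which releases urea, had 40.8, 5.8 and 2.6 in lung and 1170, 1326 and 1395 in liver (log2 -6.34, adjusted p = 1.27e-05). Uox, urate oxidase, differed by log2 -6.88 (adjusted p = 4.45e-06). Bhmt, which remethylates homocysteine, differed by -6.32 at its brightest probe set and by -0.65 (adjusted p = 0.167) at its other one, so that it is uncertain. Glul, glutamine synthetase, had 392, 319 and 242 in lung and 157, 142 and 262 in liver, and was not called (log2 0.79, adjusted p = 0.0517), but was called without the third lung (log2 0.97) or the third liver (log2 1.06).

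Genes of glucose and glycogen metabolism were more often higher in liver than in lung. Of 24 genes tested, 13 were higher in liver, 3 higher in lung and 8 not called, at a median of log2 -1.27. Fbp1, an enzyme of glucose synthesis, had 6.5, 6.4 and 6.9 in lung and 3204, 4056 and 4197 in liver, at least 379-fold more (adjusted p = 4.07e-09). G6pc, which frees glucose for export, had 113, 110 and 92.8 in lung and 1055, 1296 and 1147 in liver (log2 -3.47, adjusted p = 5.22e-07). Pck1, which controls entry into glucose synthesis, had less signal in liver than Fbp1 or G6pc, with 4.1, 10.0 and 23.2 in lung and 195, 205 and 210 in liver (log2 -3.94, adjusted p = 0.000147). Its difference was log2 -5.75 in newborns at 2 h, and the change with age was not tested. The 3 genes higher in lung take part in glucose breakdown or glycogen storage outside the liver and were named after their values were seen: Hk1 (log2 1.03), Aldoa (0.64, with another probe set not called) and Gys1 (0.48, adjusted p = 0.0498). Gys1 was not called in 13 alternatives, among them the omission of any single array but the third lung.

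Fatty acid oxidation differed less, with 15 of 25 genes higher in liver, 2 higher in lung and a median of log2 -0.86. Acaa2, a thiolase of mitochondrial oxidation, had 1120, 1242 and 1457 in lung and 6803, 8338 and 7712 in liver (log2 -2.58, adjusted p = 1.84e-06). Acadm, which opens the oxidation of medium chains, had 227, 154 and 402 in lung and 809, 990 and 948 in liver (log2 -1.92, adjusted p = 0.00117). Of 45 genes of oxidative phosphorylation, 15 were higher in liver, 3 higher in lung and 27 not called, at a median of log2 -0.44. The 3 calls higher in lung were lost without the third liver, and the count of 15 was 9 without the second or the third liver or without the first lung.

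Drug and bile acid genes were higher in liver for 32 of 48 genes, higher in lung for 6 and not called for 10, at a median of log2 -1.33. Cyp2d26, a cytochrome P450, had 9.0, 17.6 and 5.1 in lung and 5448, 5516 and 5110 in liver (log2 -8.79, adjusted p = 1.20e-08). Slc10a1, which takes up bile acids from blood, had 52.2, 69.7 and 24.0 in lung and 1383, 1065 and 1244 in liver (log2 -4.79, adjusted p = 8.88e-06). Cyp7a1, the first enzyme of bile acid synthesis and named after its values were seen, was near background in lung and low in liver, with 7.8, 25.1 and 6.9 in lung and 75.5, 69.3 and 92.7 in liver (log2 -2.53, adjusted p = 0.00705). The genes higher in lung included Aldh1a1, Cyp2f2 and Cyp4b1, which the airway list also holds. Aldh1a1 differed by log2 2.95 (adjusted p = 0.00299) at its brightest probe set and by -0.97 (adjusted p = 0.312) at its other one.

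Transcription factors of liver were less one-sided than those of lung. Of 17 tested, 9 were higher in liver, 3 higher in lung and 5 not called, at a median of log2 -0.73. The 3 higher in lung made up 17.6%, beside 21.3% of all genes tested. Hnf4a, a main regulator of hepatocytes, had 7.9, 26.4 and 14.1 in lung and 309, 183 and 135 in liver (log2 -3.67, standard error 0.50, adjusted p = 0.000432). Cebpa, which hepatocytes and lung epithelium share, was bright in both, with 843, 931 and 911 in lung and 2144, 1932 and 2125 in liver (log2 -1.21, adjusted p = 8.12e-05). Its relatives went the other way: Cebpd had 466, 448 and 377 in lung and 76.5, 109 and 100 in liver (log2 2.18, adjusted p = 5.42e-05), and Cebpb differed by log2 0.96 (adjusted p = 0.00456). Rxra, a partner of nuclear receptors, was higher in lung at one probe set (log2 1.43) and was called the other way at another, and it was not called without the first or the second lung. Cebpa, Cebpb and Rxra were named after their values were seen.

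Most genes of the red cell line were higher in liver. Of 35 globin and erythroid genes, 25 were higher in liver, 1 higher in lung and 9 not called, at a median of log2 -1.69. Slc4a1, the anion exchanger of the red cell membrane, had 79.5, 68.8 and 55.2 in lung and 2106, 3019 and 2341 in liver (log2 -5.20, standard error 0.20, adjusted p = 1.06e-07). Klf1, the factor that drives red cell genes, had 41.5, 59.0 and 17.6 in lung and 917, 894 and 884 in liver (log2 -4.68, adjusted p = 1.94e-05). Alas2, the first enzyme of heme synthesis in red cells, had 549, 604 and 637 in lung and 1515, 1411 and 1285 in liver (log2 -1.23, adjusted p = 0.000118). Of the 9 not called, 4 were globins and 5, among them the transferrin receptor Tfrc, were not. Hba-a1 had 33730, 36230 and 30854 in lung and 39809, 40292 and 49684 in liver, and was not called (log2 -0.36, standard error 0.19, adjusted p = 0.165), nor was Hbb-b2 (log2 -0.41, adjusted p = 0.0686), which was called without the first liver (log2 -0.55). For both globins the 3 lungs lay below the 3 livers, by little. Globin genes have near-identical copies that their probes may not separate, and blood left in the vessels of either organ carries globin RNA.

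Granule genes of the neutrophil line were higher in liver too. Of 18 myeloid granule genes, 12 were higher in liver, 4 higher in lung and 2 not called, at a median of log2 -2.94. The 4 higher in lung made up 22.2%, near the 21.3% of all genes tested. Ngp, neutrophilic granule protein, had 17.0, 18.6 and 19.7 in lung and 3926, 3242 and 3521 in liver (log2 -7.59, adjusted p = 4.07e-09). S100a8, a calcium-binding protein of neutrophils, had 140, 174 and 121 in lung and 8448, 8218 and 7773 in liver (log2 -5.83, adjusted p = 1.20e-08), and differed by -3.71 at 2 h and by -2.60 at 6 h. Mpo, the myeloperoxidase of early granules, had 53.8, 15.1 and 21.7 in lung and 630, 665 and 469 in liver (log2 -4.48, adjusted p = 5.37e-05). The 4 genes higher in lung, Gata2, Hdc, Cd63 and Csf3r, were named after their values were seen, and Gata2 is also a factor of endothelium. The count of 4 was 2 without the second or the third liver.

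Macrophage genes were mostly higher in liver. Of 23 tested, 13 were higher in liver, 3 higher in lung and 7 not called, at a median of log2 -1.0. Clec4f, a lectin of Kupffer cells, the macrophages of the liver, had 15.7, 11.2 and 27.6 in lung and 344, 331 and 305 in liver (log2 -4.27, adjusted p = 3.09e-05). Marco, a scavenger receptor, had 6.9, 9.3 and 6.3 in lung, all under the floor, and 164, 184 and 156 in liver, at least 16.7-fold more (adjusted p = 7.46e-05). C1qc, a chain of the complement protein C1q that macrophages secrete, had 241, 191 and 213 in lung and 979, 1113 and 900 in liver (log2 -2.21, adjusted p = 7.90e-06). The 3 genes higher in lung were Pltp, Cd14 and Lyz2, the lysozyme that type 2 cells also express, named after their values were seen. Lyz2 had 1286, 1364 and 468 in lung and 391, 410 and 281 in liver (log2 1.40, adjusted p = 0.0168), and lost its call without the third liver, the first lung or the second lung, at log2 1.12 to 1.23.

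Cell cycle genes were more often higher in liver than in lung. Of 44 cell cycle genes, 19 were higher in liver, 2 higher in lung and 23 not called, at a median of log2 -0.89. Rrm1, which makes the building blocks of DNA, had 24.5, 15.5 and 24.3 in lung and 357, 288 and 167 in liver (log2 -3.62, adjusted p = 0.000102). Mki67, the marker of cycling cells, had 48.3, 77.0 and 128 in lung and 201, 365 and 291 in liver (log2 -1.83, adjusted p = 0.00468). Mcm2, of the DNA helicase, had 111, 61.9 and 102 in lung and 292, 345 and 344 in liver (log2 -1.88, adjusted p = 0.000529). Of the 2 genes higher in lung, Ccnd1, the cyclin that links growth signals to the cycle, had 219, 268 and 235 in lung and 105, 74.9 and 42.4 in liver (log2 1.79, adjusted p = 0.00296). Ccnd1 was not called at its other probe set. The second, Ccne1, a cyclin of entry into DNA synthesis (log2 1.57), lost its call without any single array but the first liver, and both were named after their values were seen. The erythroid and myeloid lists also had negative medians at F21, and the part of those precursors in the cell cycle difference was not tested.

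**Figure D3:**
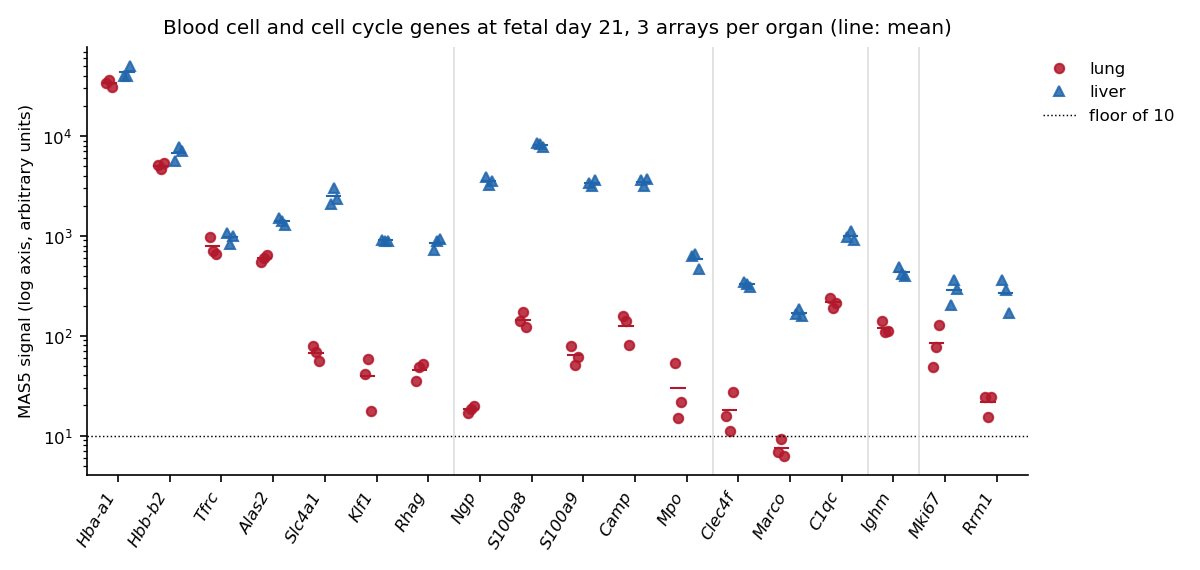
MAS5 signal on a log axis of 18 blood cell and cell cycle genes, with 3 lung arrays (circles, left) and 3 liver arrays (triangles, right) per gene, a line at each mean and a dotted line at the floor of 10. Hba-a1 lies between 30854 and 49684 in both organs, whereas Slc4a1 and Klf1 lie far lower in lung than in liver.

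Of 21 genes of fetal growth, 10 were higher in lung (47.6%) and 5 higher in liver (23.8%), with a median of log2 0.46. Over all genes tested these shares were 21.3% and 17.6%. Igf2, the fetal insulin-like growth factor, had 2800, 2471 and 2678 in lung and 18334, 18975 and 15678 in liver (log2 -2.73, standard error 0.14, adjusted p = 9.81e-07). Its clearance receptor Igf2r had 424, 396 and 563 in lung and 144, 113 and 57.4 in liver (log2 2.22, adjusted p = 0.000799, named after its values were seen). Of the binding proteins, Igfbp1 had 19.4, 7.6 and 28.7 in lung and 6388, 11305 and 9498 in liver (log2 -8.96, adjusted p = 1.55e-07), whereas Igfbp6 had 1025, 870 and 862 in lung and 34.3, 34.3 and 33.4 in liver (log2 4.75, adjusted p = 1.52e-07). Igf1 itself was not called (log2 0.44, adjusted p = 0.192).

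**Figure D4:**
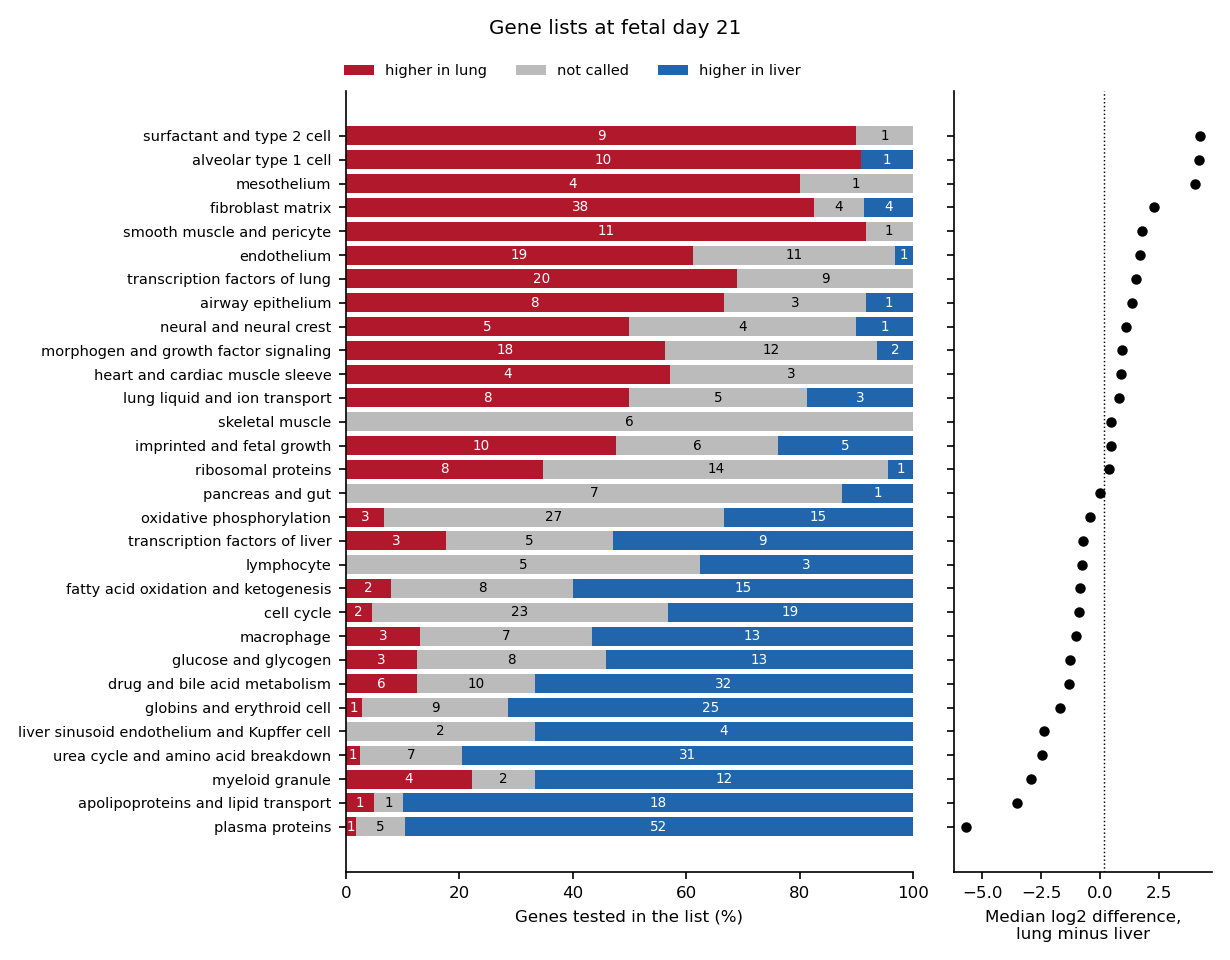
Gene lists with at least 5 genes tested at F21, ordered by median. Left, the share of genes higher in lung, not called and higher in liver, with counts in the bars. Right, the median log2 difference, lung minus liver, with a dotted line at 0.16, the median of all genes. The medians run from 4.27 for surfactant and type 2 cell genes to -5.70 for plasma protein genes.

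Markers of neighbouring tissue were looked for as well. Msln, mesothelin of the pleura and other linings, had 205, 230 and 281 in lung and 5.5, 5.5 and 7.1 in liver, at least 23.6-fold more (adjusted p = 1.93e-05). Of 5 mesothelial genes, 4 were higher in lung, of which Krt7, Krt19 and Krt8 are also keratins of lung epithelium. The marker Upk3b was not called (log2 0.39, adjusted p = 0.291). The marker Wt1 was too dim to be tested, at 48.0, 50.2 and 24.8 in lung and 47.4, 56.4 and 30.6 in liver. Of 7 heart genes tested, 4 were higher in lung, Myh7 by log2 3.65 (adjusted p = 0.000186), Myl7 by 2.96 (adjusted p = 0.00408), Actc1 by 2.2 (adjusted p = 0.00037) and Myl4 by 0.58 (adjusted p = 0.0459), a call that was lost without any 1 of the 6 arrays. Pulmonary veins of mice carry cardiac muscle. The summed signal of the 23 heart genes on the array was 1518 to 1968 in lung and 927 to 1191 in liver, Nppa overlapped between the organs, and Myh6 was too dim to be tested, at 17.8, 46.0 and 62.0 in lung and 29.5, 7.5 and 24.1 in liver. The part of such tissue in the matrix and smooth muscle differences was not tested. Of 6 skeletal muscle genes, limma called 0, with 1 at an unadjusted p under 0.05 and 0 by the methods' t-test after adjustment.

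Tff3, a trefoil peptide listed with pancreas and gut, was the exception of its list. It had 19.1, 29.7 and 29.3 in lung and 3345, 3078 and 3296 in liver (log2 -6.99, standard error 0.21, adjusted p = 1.79e-08), and differed by -7.10 at 2 h and -7.24 at 6 h. The other 7 genes of the list were not called, among them the elastase Cela1 (log2 0.40, adjusted p = 0.221).

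Ribosomal protein genes, which every cell uses, had a small median difference of log2 0.38, with a range of -2.45 to 1.27. Of 23 tested, 8 were higher in lung (34.8%), 1 higher in liver (4.35%) and 14 not called. Over all genes tested these shares were 21.3% and 17.6%. Rps4x had 5748, 6061 and 8247 in lung and 3934, 3942 and 3568 in liver (log2 0.79, adjusted p = 0.00526), and Rplp0 had 7672, 7915 and 10412 in lung and 8224, 8577 and 8306 in liver (log2 0.04, adjusted p = 0.877). The count higher in lung was 15 after quantile normalization, 4 without the third liver, and 5 without the second liver or the second lung. In the arrays of 2 h, the median of the 23 genes was log2 -0.51, with 4 higher in lung and 13 higher in liver, and at 6 h it was 0.15 over 22 genes. The 2 h lungs stood apart, as their 100 brightest probe sets held 22.9% to 24.4% of the signal, against 31.2% to 33.9% in fetal lungs, and the part of this in the ribosomal difference was not tested. Many ribosomal protein genes have processed copies with near-identical sequence.

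The same organs were compared in newborn mice on arrays that shared no sample with the fetal ones. Of 5532 probe sets tested at 2 h, 2630 were called (47.5%), and of 5490 tested at 6 h, 2140 were called (39.0%). Of the 923 genes higher in fetal lung, 483 (52.3%) were called higher in lung at both times, and of the 763 genes higher in fetal liver, 496 (65.0%) were called higher in liver at both times. Calls in the opposite direction at 2 h were given to 10 genes higher in fetal lung and 5 genes higher in fetal liver, and at 6 h to 0 and 7, by limma. Over the 21 other lung arrays and 6 other liver arrays, 10% oxygen included, every lung lay above every liver for 293 of the genes higher in fetal lung (31.7%), and every lung lay below every liver for 388 of the genes higher in fetal liver (50.9%). Among the 2648 genes not called at F21, every lung lay above every liver for 28 and below for 24. The lungs of 10% oxygen had 3′ to 5′ ratios of Gapdh of 1.21 to 9.4. In room air the ratios were 0.77 to 0.873 in lung and 1.4 to 1.81 in liver at 2 h. At 6 h they were 0.837 to 1.04 in lung and 1.3 to 1.46 in liver. RNA quality and organ therefore cannot be told apart in these newborn comparisons either.

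The leading genes of the fetal comparison were again far apart in newborns. Sftpc differed by log2 8.2 at 2 h and 9.28 at 6 h, Ager by 5.00 and 5.56, and Eln by 4.06 and 4.32. Alb differed by log2 -10.41 at 2 h and -10.05 at 6 h, and Apoa1 by -11.68 and -11.55. Of 171 named genes called at F21 and tested at 2 h, 167 had the same sign and 161 the same call, and at 6 h these were 169 and 165 of 170. Among lists, cell cycle genes had a median of log2 -1.71 at 2 h and -1.79 at 6 h over the 43 and 42 genes tested at both ages, and -0.94 and -0.89 for the same genes at F21. Changes of a difference with age were not tested.

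**Figure D5:**
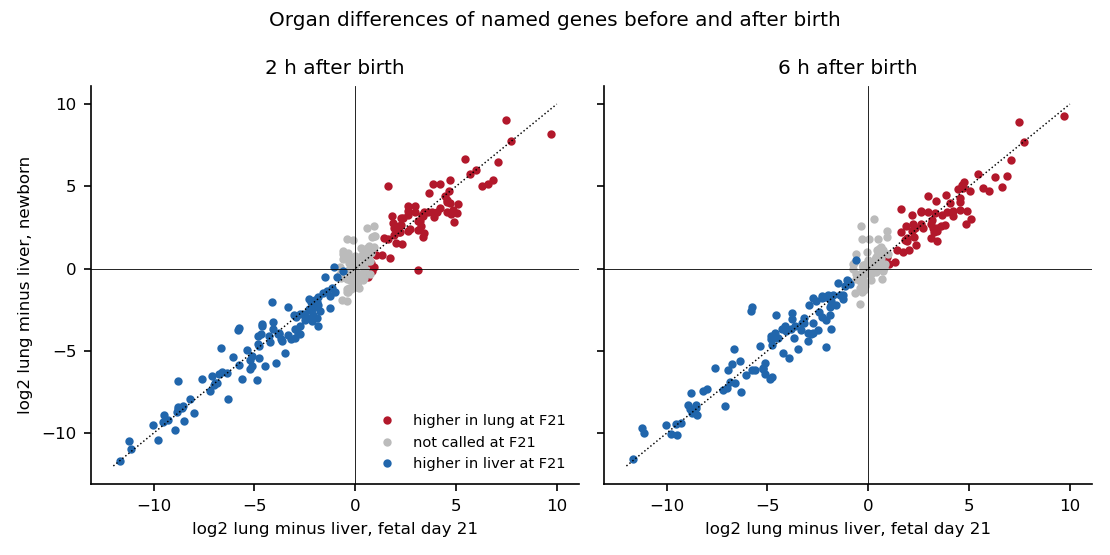
Log2 difference, lung minus liver, of the named genes in newborn arrays (vertical axis) against F21 arrays (horizontal axis), at 2 h (252 genes) and 6 h (249 genes) after birth, by their call at F21; the dotted line marks equal differences. Most genes lie along the line, and Klf4 lies above it, at log2 1.64 at F21, 5.01 at 2 h and 3.65 at 6 h.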

How the data were processed

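The deposited values of 12488 probe sets were linear signal intensities that the authors computed with MAS5, scaling each chip to a target of 100. After 66 controls were removed, a floor of 10 was applied before the log2 step, and 3 fetal lungs were compared with 3 fetal livers in limma 3.58.1 (R 4.3.3) with a variance trend and Benjamini-Hochberg adjustment over the 5444 probe sets tested. The authors' detection p-values were not used here, so a filter on the top 40% of signals, their stated share of detected probes, stood in. Probe sets were named from the array's annotation (10833 with 1 symbol, 396 with several, 1193 with none), and a gene was represented by its brightest tested probe set of 1 symbol. Where all 3 arrays of an organ lay under the floor, a fold is given as a bound from the floor.

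The genes, the 33 lists and the markers were chosen with earlier results of these data known. Named genes were the 12 largest differences each way among called genes without overlap between organs and with at least 2 arrays at or above the floor in each organ, up to 6 called and 3 uncalled members of each list, the markers and the genes the study names; others were named after their values were seen. Promoters came from RefSeq (GRCm38.p6), in which 3532 of the genes tested were matched. Of 200 changes added to simulated data of 5444 probe sets, 19.5% at log2 1, 80.0% at log2 2 and 93.5% at log2 3 were recovered. Only those 200 differed in the simulation, against 2096 called in the data, so that these shares may not hold for the data. The number of arrays limits the precision. Alternatives were another floor, a pseudocount of 16, other scalings, filters and sets of arrays, a replicate block, the methods' t-test, and leaving out each array.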

Additional observations from a re-analysis of the deposited data

Results flagged for a closer look

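For 4 of the genes described, the 3 lungs lay on one side of the 3 livers at F21 and on the opposite side in newborns, and the difference between the ages was not tested. The search covered 200 named genes called at F21 and 82 not called. Over all probe sets tested, lungs and livers lay apart in either direction in 52.1% at F21, 59.7% at 2 h and 52.2% at 6 h. The share of all probe sets that changed sides between the ages was not counted, so the 4 genes have no background. Rps24, a ribosomal protein gene, had 14270, 14599 and 19013 in fetal lung and 8527, 11516 and 10661 in fetal liver (log2 0.64), but 8253, 8009 and 8034 in lung and 8993, 12858 and 14221 in liver at 2 h (log2 -0.54). It was called at both ages, but its fetal call was lost in 5 alternatives. Rps28, another ribosomal protein gene, had a log2 difference of 0.41 at F21, which was not called, and of -0.68 at 2 h, which was called higher in liver. Ccne1, a cyclin, had a log2 difference of 1.57 at F21 and of -0.93 at 2 h, called at both ages, but its fetal call was lost in 7 alternatives. The 100 brightest probe sets held 22.9% to 24.4% of the signal in the 2 h lungs, against 31.2% to 33.9% in fetal lungs, and the part of this in the change was not tested. Fn1 had a log2 difference of -0.24 at F21 and of 0.23 at 6 h, neither of which was called.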

How the results depend on the processing

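The 2096 probe sets called at F21 (1145 higher in lung, 951 higher in liver) stayed within 1.5 times under another floor, a pseudocount, quantile normalization, median centring, the 3 other filters and the fits of 24 or 33 arrays, at 1685 to 2212. The methods' t-test gave fewer: 1302 in all and 644 higher in lung at an unadjusted p under 0.01, and 725 higher in lung after Benjamini-Hochberg adjustment. The cause was not tested. Leaving out 1 array at a time gave 1718 to 1991 in all, 875 to 1033 higher in lung and 777 to 981 higher in liver. Without 1 array, the newborn counts were 2097 to 2576 at 2 h and 1736 to 1895 at 6 h. Deviations of same-numbered fetal lungs and livers correlated at -0.046 to 0.01, and those of differently numbered ones at -0.04 to 0.034. These values cannot show whether a lung and a liver came from the same fetus. A replicate block gave 1991 calls at F21, 2629 at 2 h and 2033 at 6 h. No probe set called at F21 was called the other way in any of these. Of 200 genes called and named, those chosen after their values were seen included, 43 lost the call in 1 or more alternatives, most often Gys1 (13 alternatives), Myl4 (10), Tubb3 (9) and Vcam1 (8), and of 442 counts of list genes over the alternatives 20 moved by over 1.5 times, 6 of them for ribosomal proteins and 5 for oxidative phosphorylation. Signals near the floor, in the organ that lacks a gene, limit the size of the largest differences.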
